A study of Mus musculus with 30 samples.

Results

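The genes described here are 10 components of bone morphogenetic protein (BMP) signalling: the ligands Bmp2, Bmp4, Bmp5 and Bmp7, the receptor Bmpr1a, and the target genes Id1, Id2, Id3, Smad6 and Smad7. A gene was read from the probe sets that carry its symbol alone, and the probe set with the highest mean over the 30 arrays stood for it. The 10 genes belong to 18194 genes with a probe set of their own, of which 14549 were tested. The set was chosen by pathway membership with measured values in view, namely the higher Bmp4 level in Rb/Myc DKO than in Rb KO. The values of Bmp4 are therefore a description with no test in any comparison, and 9 members were tested. Bmp4 stood higher on every Rb/Myc DKO array than on any control or Rb KO array of the same tissue. The question was whether the Id and Smad target genes differed along with it.

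Small intestine of mice 2 months old was profiled 5 days after deletion of Rb, or of Rb and Myc together, with Ah-cre, an inducible Cre transgene of the intestine. Villi and crypts were harvested separately in 3 genotypes, control, Rb KO and Rb/Myc DKO, and each of the 6 groups held 5 arrays. Both mutant groups lack Rb, so Rb/Myc DKO minus Rb KO is read as the effect of Myc loss in an Rb-null intestine, and no group lacks Myc alone. Any other difference between the mutant groups cannot be told apart from that effect. The labels do not say which alleles or treatment the controls carried, which cells recombined, or that replicates were separate animals. The p-values therefore weigh a difference against the spread between these samples, and replicates are called animals below as an assumption.

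BMP ligands are secreted proteins of the transforming growth factor family. They bind type I receptors such as Bmpr1a together with type II receptors, and the receptor complex phosphorylates Smad1, Smad5 and Smad9, which enter the nucleus with Smad4. In many cells the Id genes, whose products bind and inactivate basic helix-loop-helix transcription factors, are among the direct targets, and so are Smad6 and Smad7, whose products inhibit the pathway. In the intestine, BMP signalling is known to be stronger toward the villus, where it restrains proliferation, while antagonists keep it low at the crypt base, and much of the ligand comes from the mesenchyme below the epithelium.

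The promoters of 6 members were matched by symbol in RefSeq sequences of build GRCm38.p6, as the 250 bases before the annotated start of each gene. Those of Bmp4, the ligand with the largest difference, and of Id2, Id3 and Smad6, target genes on whose values the results turn, are shown 5′ to 3′ on the strand of the gene. They lie at chr14:46390670-46390919 (minus strand), chr12:25096093-25096342 (minus strand), chr4:136143572-136143821 (plus strand) and chr9:64022060-64022309 (minus strand). Capitals mark matches to motifs searched on both strands: GGCGCC, a GC-rich Smad motif, GTCT or its complement AGAC, the short Smad-binding motif, CACGTG, the E-box bound by Myc and other factors, and TTTGGCGC or its complement GCGCCAAA, an E2F motif.
Bmp4: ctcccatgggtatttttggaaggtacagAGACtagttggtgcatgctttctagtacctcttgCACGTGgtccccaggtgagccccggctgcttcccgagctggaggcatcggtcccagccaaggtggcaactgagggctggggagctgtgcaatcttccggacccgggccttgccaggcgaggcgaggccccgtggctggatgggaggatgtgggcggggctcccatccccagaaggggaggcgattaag
Id2: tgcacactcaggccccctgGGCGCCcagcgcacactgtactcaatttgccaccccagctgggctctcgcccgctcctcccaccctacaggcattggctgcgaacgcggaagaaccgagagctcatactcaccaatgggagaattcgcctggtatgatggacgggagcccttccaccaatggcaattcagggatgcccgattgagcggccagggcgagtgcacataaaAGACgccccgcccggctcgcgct
Id3: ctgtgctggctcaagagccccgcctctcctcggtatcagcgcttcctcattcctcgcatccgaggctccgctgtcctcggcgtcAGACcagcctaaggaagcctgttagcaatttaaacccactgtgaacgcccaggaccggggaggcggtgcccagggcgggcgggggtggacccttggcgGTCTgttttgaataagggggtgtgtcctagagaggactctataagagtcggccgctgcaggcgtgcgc
Smad6: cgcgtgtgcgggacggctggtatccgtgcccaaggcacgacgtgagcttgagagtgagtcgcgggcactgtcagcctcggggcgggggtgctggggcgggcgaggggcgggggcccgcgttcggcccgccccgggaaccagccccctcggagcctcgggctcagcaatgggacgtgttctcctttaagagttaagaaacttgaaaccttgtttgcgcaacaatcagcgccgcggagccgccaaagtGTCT
The Bmp4 window held 1 CACGTG, from 188 to 183 bases before the start, and 1 AGAC, and the Id2 window held 1 GGCGCC, from 231 to 226 bases before the start, and 1 AGAC. The Id3 window held 2 copies of the short Smad motif and no GGCGCC, and the Smad6 window held 1 GTCT, which ends at the base before the start. Of 32851 windows of this length, 6.02% hold CACGTG, 9.59% hold GGCGCC, 82.9% hold GTCT or AGAC and 0.417% hold the E2F motif, which none of the 4 windows shown holds. Such matches are descriptions of the letters and not binding sites.

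Values are log2 expression as deposited, on a scale set separately for villi and for crypts, so levels were compared only within a tissue. The deleted genes were read first. Rb1 fell by 1.46 in Rb KO villi and by 1.68 in Rb KO crypts against control (limma, adjusted p = 6.99e-06 and 2.65e-05). Myc fell by 1.60 from Rb KO to Rb/Myc DKO crypts (adjusted p = 1.87e-05), and in villi the difference was -0.52 (adjusted p = 0.147) with the groups fully apart. The labels do not give the place of the probes relative to the deleted exons. Control replicates 1 and 4 and Rb KO replicates 4 and 5 were known from earlier results to stand apart within their groups, and results that change without them are given both ways. Control animals 1 and 4 were also the only females among the 5 controls by Xist, so leaving them out removes every female control. The crypt markers (Olfm4, Lgr5 and 7 others) averaged 12.10 and 12.15 in Rb KO crypts 4 and 5, against 12.40 to 12.50 in the other Rb KO crypts. Differences below are log2 ± SE with adjusted two-sided p-values of limma over all 14549 genes, and a gene is said to have risen or fallen where the adjusted p is under 0.05. Calls of members between Rb/Myc DKO and Rb KO are a description throughout, since that contrast was in view when the genes were chosen.

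**Figure D1:**
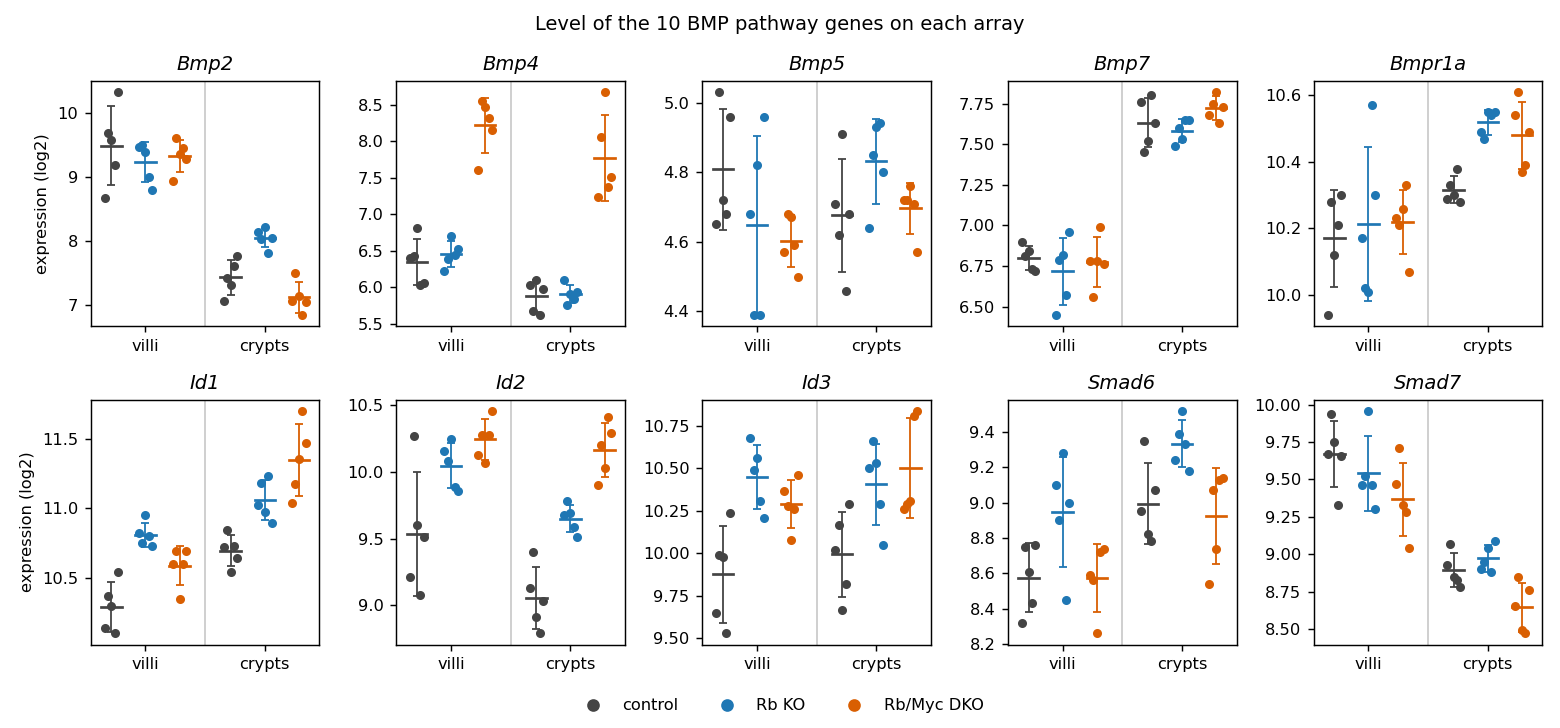
Level of the 10 BMP genes on each array, log2 on the vertical axis, by tissue and genotype on the horizontal axis. Points are arrays, the bar is the mean of 5 arrays and the whisker 1 SD. Bmp4 stands apart in both Rb/Myc DKO groups, at 7.60 to 8.55 in villi and 7.24 to 8.67 in crypts, while the means of the Id genes are lowest in controls.

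Bmp4, a ligand that signals through Bmpr1a, read 6.40, 6.43, 6.81, 6.03 and 6.05 on the control villus arrays (replicates 1 to 5), 6.22, 6.38, 6.70, 6.44 and 6.52 on the Rb KO arrays and 7.60, 8.55, 8.47, 8.31 and 8.15 on the Rb/Myc DKO arrays. The control and Rb KO villi overlapped, and all 5 double knockout villi lay above them. In crypts Bmp4 read 6.03, 5.67, 6.10, 5.62 and 5.98 in controls, 6.10, 5.75, 5.90, 5.84 and 5.94 in Rb KO and 7.24, 8.06, 8.67, 7.37 and 7.51 in Rb/Myc DKO. Here too the double knockout arrays lay above all others, with replicates 2 and 3 the highest. The group means were 6.34 ± 0.32, 6.45 ± 0.18 and 8.21 ± 0.38 in villi and 5.88 ± 0.22, 5.91 ± 0.13 and 7.77 ± 0.59 in crypts (SD, n = 5) for control, Rb KO and Rb/Myc DKO. Bmp4 was thus 3.39-fold higher in Rb/Myc DKO than in Rb KO villi (log2 difference 1.76, 95% interval 1.39 to 2.13) and 3.64-fold higher in crypts (1.86, 1.42 to 2.31). Rb KO minus control was 0.11 (-0.26 to 0.48) in villi and 0.03 (-0.42 to 0.47) in crypts. Over every alternative setting the difference between Rb/Myc DKO and Rb KO stayed between 1.68 and 1.91 in villi and between 1.64 and 2.00 in crypts. Bmp4 has 1 probe set on the array.

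Bmp2, a ligand close in sequence to Bmp4, followed another pattern, and it differed between crypt groups. In crypts Bmp2 read 7.07, 7.42, 7.31, 7.61 and 7.77 in controls, 8.15, 8.04, 8.22, 7.82 and 8.05 in Rb KO and 7.07, 7.50, 7.15, 6.85 and 7.05 in Rb/Myc DKO. All 5 Rb KO crypts lay above every other crypt array, and the double knockout overlapped the control. Bmp2 rose by 0.62 ± 0.13 in Rb KO crypts (1.54-fold, limma, adjusted p = 0.00566) and fell by 0.93 ± 0.13 from Rb KO to Rb/Myc DKO (1.91-fold lower, adjusted p = 0.000283). Both calls were kept in every alternative setting, with adjusted p at most 0.0335 and 0.00588. Rb/Myc DKO minus control was -0.31 in crypts (adjusted p = 0.107), and it passed the threshold when Rb/Myc DKO crypts replicate 2 or control crypts replicate 1 was left out (adjusted p = 0.0306 and 0.031).

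In villi Bmp2 read 8.67, 9.69, 9.58, 9.19 and 10.33 in controls, 9.47, 9.50, 9.40, 9.01 and 8.80 in Rb KO and 8.94, 9.61, 9.37, 9.46 and 9.28 in Rb/Myc DKO. The groups overlapped, and the controls spread most, from replicate 1 to replicate 5. The differences of Rb KO from control (-0.26), of Rb/Myc DKO from Rb KO (0.10) and of Rb/Myc DKO from control (-0.16) did not pass the threshold (limma, adjusted p = 0.465, 0.841 and 0.683). The crypt marker list (Olfm4, Lgr5 and 7 others) varied along with Bmp2 among the control villi: its mean level was 9.36 and 10.24 in replicates 1 and 4, where Bmp2 was lowest, and 7.99 to 8.93 in the others. Without control replicates 1 and 4, Bmp2 in Rb KO villi lay 0.63 below control (-0.63, adjusted p = 0.0261).

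Bmp7, another BMP ligand, read 6.72 to 6.90 in control, 6.45 to 6.96 in Rb KO and 6.56 to 6.99 in Rb/Myc DKO villi, and 7.45 to 7.80, 7.49 to 7.65 and 7.63 to 7.82 in the crypt groups. The groups overlapped in each tissue, and none of the 3 comparisons passed the threshold in villi or crypts (limma, adjusted p from 0.2 to 0.886). The other probe sets of Bmp7 disagreed with the one used. Over all 45101 probe sets, they differed between Rb/Myc DKO and control crypts by 0.52 and 0.48 (limma, adjusted p = 0.0124 and 0.0121), and 1 of them also differed in villi (0.65, adjusted p = 0.0443), while the probe set used differed by 0.09 and -0.02. With the mean of its probe sets, Bmp7 rose in Rb/Myc DKO against control crypts (0.36, adjusted p = 0.00906). In Rb/Myc DKO crypts the probe set with the difference of 0.52 read 7.77 to 8.40, against 7.63 to 7.82 for the one used. In Rb/Myc DKO villi it read 5.03 to 6.17, below the one used. The plot of probe sets gives the differences, and which probe set reads the transcript of these tissues was not tested.

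**Figure D2:**
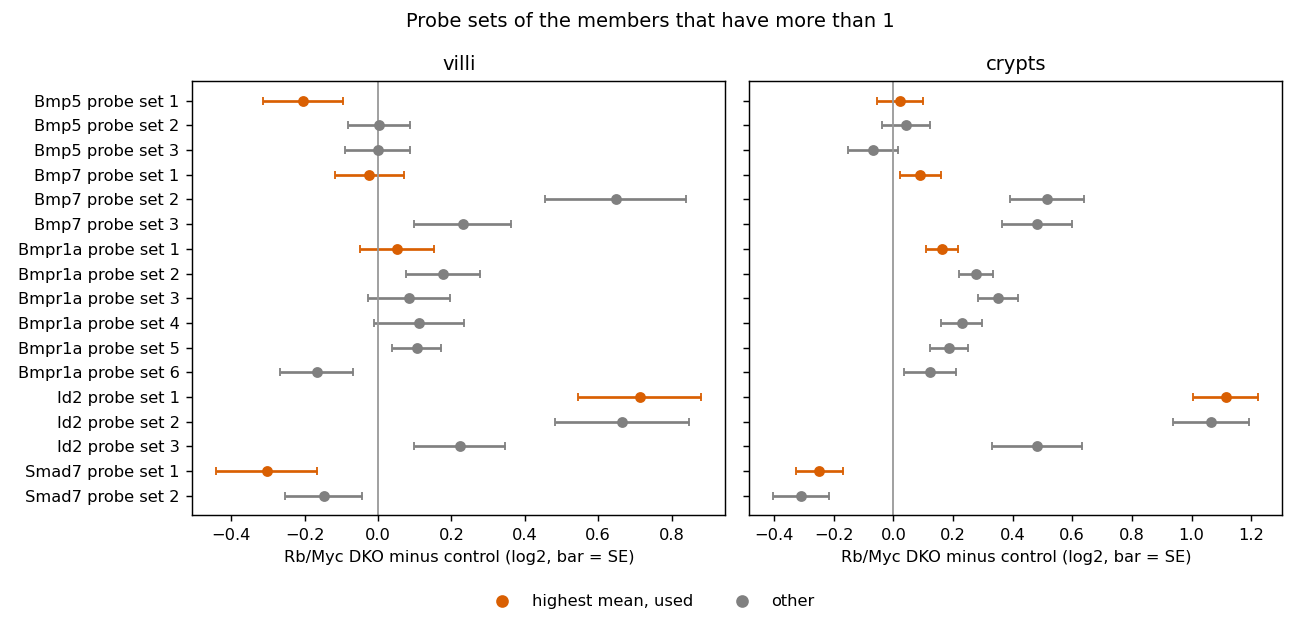
Rb/Myc DKO minus control (log2, horizontal axis) for each probe set of the 5 members that have more than 1, in villi and in crypts. Points are differences and bars 1 SE, with the probe set of highest mean in orange. The Bmp7 probe sets disagree, at 0.09, 0.52 and 0.48 in crypts, and the Id2 probe sets all lie above 0.

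Bmp5, also a BMP ligand, was at the low end of the scale, from 4.39 to 5.03 over all 30 arrays, under the 30th percentile of probe set means (5.33) below which other genes were not tested. Its groups overlapped and none of its differences passed the threshold (limma, adjusted p from 0.214 to 0.885). At this signal a difference in Bmp5 may not be detectable.

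Bmpr1a, the type I receptor, read 10.29, 10.33, 10.30, 10.38 and 10.28 in control crypts, 10.49, 10.47, 10.55, 10.54 and 10.55 in Rb KO crypts and 10.54, 10.61, 10.37, 10.39 and 10.49 in Rb/Myc DKO crypts. The Rb KO crypts lay above all controls, and the double knockout overlapped both. Bmpr1a rose by 0.20 ± 0.05 in Rb KO crypts against control (1.15-fold, limma, adjusted p = 0.0152), and by 0.16 ± 0.05 in Rb/Myc DKO crypts (adjusted p = 0.0302). The first call was lost with the crypt marker score in the model (adjusted p = 0.0738) and without Rb KO replicates 4 and 5 (0.0947). The second was lost with only the compared groups in the fit (adjusted p = 0.0811), with the replicate block (0.0612), without control replicates 1 and 4 (0.0552), and without any of Rb/Myc DKO crypts replicates 1, 2 and 5 and control crypts replicates 1, 3 and 5 (0.0518 to 0.0825). Of the 5 other Bmpr1a probe sets, 3 passed in Rb KO crypts (0.28 to 0.30, limma over 45101 probe sets, adjusted p = 0.00876, 0.0189 and 0.021), and the same 3 passed in Rb/Myc DKO against control crypts (0.28, 0.35 and 0.23, adjusted p = 0.00417, 0.00276 and 0.0422). In that larger fit the probe set used had adjusted p = 0.0372 and 0.0629. In villi Bmpr1a read 9.94 to 10.57 with all groups overlapping, and its differences were 0.05, 0.01 and 0.05 (limma, adjusted p from 0.762 to 0.983).

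Id1, an inhibitor of basic helix-loop-helix factors, read 10.14, 10.37, 10.30, 10.10 and 10.54 in control villi, 10.82, 10.75, 10.95, 10.80 and 10.73 in Rb KO villi and 10.60, 10.69, 10.35, 10.60 and 10.69 in Rb/Myc DKO villi. The Rb KO villi lay above all controls and above all double knockouts, which overlapped the controls through replicate 3. Id1 rose by 0.52 ± 0.09 in Rb KO villi (1.43-fold, limma, adjusted p = 0.000355), and this call was kept in all 24 alternative settings. Rb/Myc DKO minus Rb KO was -0.22 in villi (adjusted p = 0.134). Id1 also rose in Rb/Myc DKO against control villi, by 0.30 ± 0.09 (adjusted p = 0.0303). That call was lost with only the compared groups in the fit (adjusted p = 0.0561), without control replicates 1 and 4 (0.18, 0.167), and without any of Rb/Myc DKO villi replicates 1, 2, 4 and 5 and control villi replicates 1, 3 and 4 (0.0526 to 0.0766).

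In crypts Id1 read 10.72, 10.84, 10.54, 10.73 and 10.64 in controls, 11.02, 11.18, 10.97, 11.23 and 10.89 in Rb KO and 11.04, 11.17, 11.35, 11.70 and 11.47 in Rb/Myc DKO. Both mutant groups lay above all controls, and they overlapped each other. Id1 rose by 0.65 ± 0.11 in Rb/Myc DKO against control crypts (1.57-fold, limma, adjusted p = 0.000412), and this call was kept in all 23 alternative settings. The rise in Rb KO crypts was 0.36 ± 0.11 (adjusted p = 0.0391). It was lost with quantile normalization (adjusted p = 0.0639), without control replicates 1 and 4 (0.0843), without Rb KO replicates 4 and 5 (0.108), and without any of Rb KO crypts replicates 1 to 4 and control crypts replicates 1, 3, 4 and 5 (0.0538 to 0.102). Rb/Myc DKO minus Rb KO was 0.29 in crypts (adjusted p = 0.0881), and it passed the threshold without Rb/Myc DKO crypts replicate 1 (0.0316).

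Id2, of the same family, read 9.13, 9.40, 8.91, 8.79 and 9.03 in control crypts, 9.68, 9.78, 9.69, 9.59 and 9.51 in Rb KO crypts and 9.90, 10.20, 10.03, 10.41 and 10.29 in Rb/Myc DKO crypts. The 3 genotypes did not overlap, with controls lowest and double knockouts highest. Id2 rose by 0.60 ± 0.11 in Rb KO crypts against control (1.51-fold, limma, adjusted p = 0.00226), and by a further 0.52 ± 0.11 from Rb KO to Rb/Myc DKO (1.43-fold, adjusted p = 0.00553). Rb/Myc DKO minus control was 1.12 ± 0.11 (2.17-fold, adjusted p = 4.63e-06), which ranked 71st by p among all genes. The calls against control were kept in every alternative setting. The call between the mutants was lost with the mean of the 3 Id2 probe sets (0.32, adjusted p = 0.0605), since the other probe sets differed by 0.35 and 0.08, and was kept in the other 22 settings.

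In villi Id2 read 9.21, 10.27, 9.60, 9.08 and 9.51 in controls, 10.16, 10.08, 10.25, 9.89 and 9.86 in Rb KO and 10.13, 10.28, 10.07, 10.28 and 10.46 in Rb/Myc DKO. Control replicate 2 lay among the mutants, and the other controls lay below all of them. Id2 rose by 0.51 ± 0.17 in Rb KO villi (1.43-fold, limma, adjusted p = 0.0315) and by 0.71 ± 0.17 in Rb/Myc DKO villi against control (1.64-fold, adjusted p = 0.0087), while Rb/Myc DKO minus Rb KO was 0.20 (adjusted p = 0.496). The Rb KO call was lost with the mean of the probe sets (adjusted p = 0.0578), with only the compared groups in the fit (0.0669), and without any of Rb KO villi replicates 1, 2 and 3 and control villi replicates 1, 4 and 5 (0.0547 to 0.0768). Without control replicates 1 and 4 the values were 0.25 (adjusted p = 0.228) in Rb KO and 0.45 (0.0553) in Rb/Myc DKO villi.

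Id3, the third of these inhibitors, read 9.65, 9.99, 9.98, 9.53 and 10.24 in control villi, 10.68, 10.49, 10.56, 10.31 and 10.21 in Rb KO villi and 10.37, 10.28, 10.08, 10.26 and 10.46 in Rb/Myc DKO villi. Control replicate 5 alone reached into the range of each mutant group. Id3 rose by 0.57 ± 0.13 in Rb KO villi (1.49-fold, limma, adjusted p = 0.0026), kept in all 24 alternative settings but at 0.38 (adjusted p = 0.0183) without control replicates 1 and 4. It rose by 0.41 ± 0.13 in Rb/Myc DKO against control villi (1.33-fold, adjusted p = 0.0349), and Rb/Myc DKO minus Rb KO was -0.16 (adjusted p = 0.448). The Rb/Myc DKO call was lost with only the compared groups in the fit (adjusted p = 0.0502), without control replicates 1 and 4 (0.22, 0.194), and without any of Rb/Myc DKO villi replicates 1, 2, 4 and 5 and control villi replicates 1 and 4 (0.0594 to 0.0888). With sex in the model, which keeps control animals 1 and 4, the calls of Id1, Id2 and Id3 in Rb/Myc DKO against control villi were kept (adjusted p = 0.0348, 0.00973 and 0.0354).

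In crypts Id3 read 10.02, 10.17, 9.67, 9.82 and 10.29 in controls, 10.50, 10.66, 10.53, 10.29 and 10.05 in Rb KO and 10.26, 10.29, 10.31, 10.81 and 10.84 in Rb/Myc DKO. All 3 groups overlapped. Id3 rose by 0.51 ± 0.15 in Rb/Myc DKO against control crypts (1.42-fold, limma, adjusted p = 0.0239), while Rb KO minus control was 0.41 (adjusted p = 0.0951) and Rb/Myc DKO minus Rb KO was 0.09 (0.739). The call was lost without control replicates 1 and 4 (adjusted p = 0.101) and without any of Rb/Myc DKO crypts replicates 4 and 5 and control crypts replicates 3 and 4 (0.0575 to 0.0664).

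Smad6, an inhibitor of BMP receptor signalling, read 8.95, 9.35, 8.82, 8.78 and 9.07 in control crypts, 9.24, 9.39, 9.52, 9.33 and 9.18 in Rb KO crypts and 8.54, 9.07, 8.74, 9.13 and 9.14 in Rb/Myc DKO crypts. The Rb KO crypts lay above all double knockouts, and the controls overlapped both. Smad6 fell by 0.41 ± 0.13 from Rb KO to Rb/Myc DKO crypts (1.33-fold lower, limma, adjusted p = 0.044). This call held in 11 of 23 alternative settings. It was lost with no filter (adjusted p = 0.0502), quantile normalization (0.0562), the crypt marker score (0.172) or the mesenchyme marker score (0.0634) in the model, without Rb KO replicates 4 and 5 (0.0809), and without any of Rb/Myc DKO crypts replicates 1 and 3 and Rb KO crypts replicates 1 to 4 (0.0641 to 0.106). Rb KO minus control was 0.34 in crypts (adjusted p = 0.105), past the threshold without control crypts replicate 2 (0.0376), and Rb/Myc DKO minus control was -0.07 (0.76).

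In villi Smad6 read 8.32, 8.75, 8.61, 8.43 and 8.76 in controls, 9.10, 8.90, 9.28, 8.45 and 9.0 in Rb KO and 8.59, 8.56, 8.26, 8.72 and 8.74 in Rb/Myc DKO. Apart from replicate 4, the Rb KO villi lay above every other array. Rb KO minus control was 0.37 (limma, adjusted p = 0.0532), Rb/Myc DKO minus Rb KO was -0.37 (0.114), and Rb/Myc DKO minus control was 0.00 (0.998). Without Rb KO villi replicate 4 the first 2 differences passed the threshold (0.50, adjusted p = 0.00554, and -0.50, 0.0286), and the first did so without control villi replicate 5 (0.0478), with the crypt marker score in the model (0.0145) and with a stricter filter on low genes (0.047). It passed also without Rb KO replicates 4 and 5 (0.52, 0.0105), as did the second (-0.52, 0.0456), while without control replicates 1 and 4 the first was 0.24 (0.252).

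Smad7, an inhibitor of BMP and transforming growth factor signalling, read 8.93, 9.07, 8.85, 8.83 and 8.78 in control crypts, 8.90, 8.95, 9.04, 8.88 and 9.09 in Rb KO crypts and 8.65, 8.85, 8.49, 8.47 and 8.76 in Rb/Myc DKO crypts. The double knockouts lay below all Rb KO crypts, and they overlapped the controls through replicate 2. Smad7 fell by 0.33 ± 0.08 from Rb KO to Rb/Myc DKO crypts (1.26-fold lower, limma, adjusted p = 0.0121), a call lost with the crypt marker score in the model (-0.25, adjusted p = 0.123). It fell by 0.25 ± 0.08 against control crypts (1.19-fold lower, adjusted p = 0.0345). That second call was lost with only the compared groups in the fit (adjusted p = 0.0728), with the crypt (0.0515) or mesenchyme (0.0519) marker score in the model, without control replicates 1 and 4 (0.0832), and without any of Rb/Myc DKO crypts replicates 1, 3 and 4 and control crypts replicates 1 and 2 (0.0573 to 0.0906). In villi Smad7 read 9.33 to 9.94 in controls, 9.30 to 9.96 in Rb KO and 9.04 to 9.71 in Rb/Myc DKO, and its differences of -0.13, -0.18 and -0.30 did not pass the threshold (limma, adjusted p = 0.534, 0.462 and 0.15).

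Counted over the members, Id1 and Id2 rose with Rb loss in both tissues. The Id1 call in crypts held in 12 of 24 alternative settings and the Id2 call in villi in 14 of 24. In Rb KO against control villi, 3 of the 9 tested members rose (Id1, Id2 and Id3) and 0 fell, beside 30.5% of all genes past the threshold and 14.7% higher. Their groups were fully apart for 1 member, Id1, as for 18.7% of all genes, 9.88% in the higher direction. In Rb KO against control crypts, 4 of 9 rose (Bmp2, Bmpr1a, Id1 and Id2) and 0 fell, beside 10.3% of all genes past the threshold and 7.33% higher, and all 4 were fully apart, as were 9.44% of all genes, 6.76% in the higher direction. The 5 target genes had a median difference of 0.51 in villi and 0.36 in crypts, against -0.02 and -0.00297 over all genes.

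**Figure D3:**
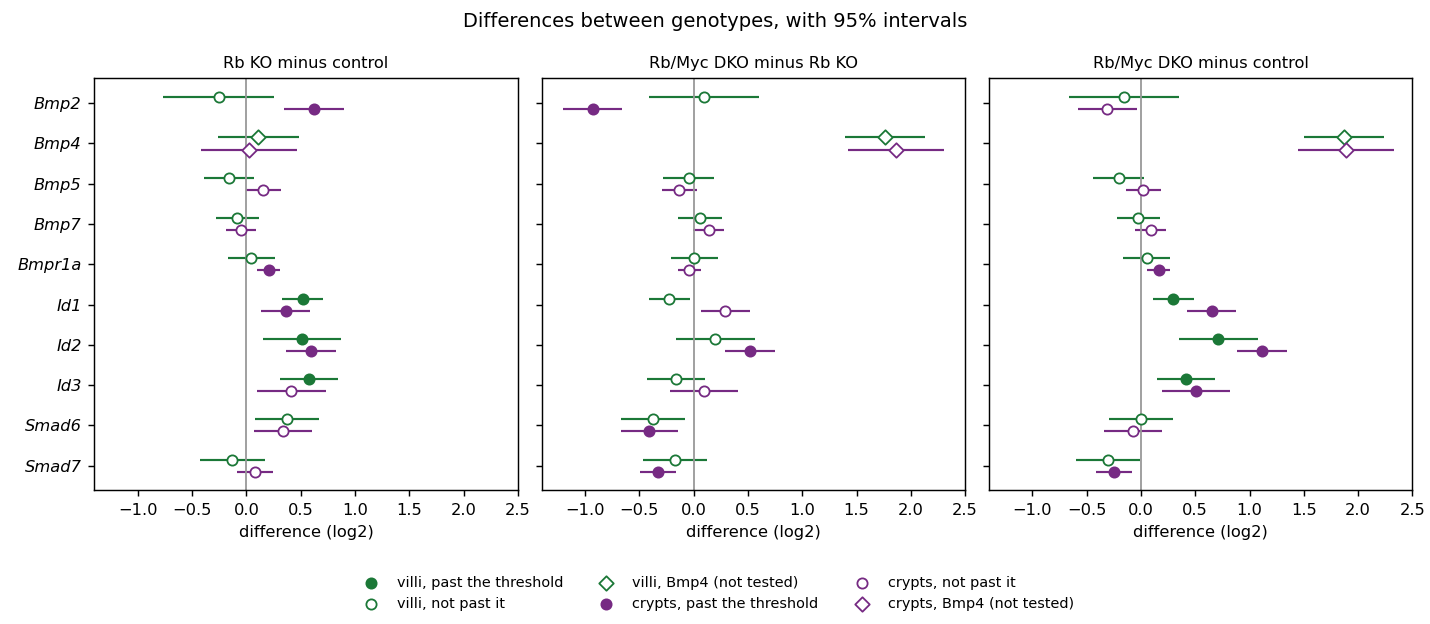
Differences between genotypes (log2, horizontal axis) for the 10 genes, in villi (green) and crypts (purple), with 95% intervals. Filled points passed the adjusted p threshold, open points did not, and open diamonds are Bmp4, which was not tested. Bmp4 lies at 1.76 and 1.86 in the middle panel, where Id2 and Smad7 in crypts, at 0.52 and -0.33, lie on opposite sides of 0.

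Bmp4 was 3.39-fold and 3.64-fold higher in Rb/Myc DKO than in Rb KO villi and crypts. In this comparison the target genes that passed the threshold, all in crypts, did not share a direction. The crypt calls of Id2, Smad6 and Smad7 held in 22, 11 and 21 of 23 alternative settings. With the crypt marker score in the model both Smad calls were lost (limma, adjusted p = 0.172 and 0.123). In villi 0 of 9 tested members passed the threshold (limma), beside 7.83% of all genes. At an unadjusted p under 0.05, 2 of 9 did, Id1 and Smad6, both lower. By unadjusted p these genes held ranks 2421 and 2129 among the 14549 genes tested. The share of all genes under 0.05 without adjustment was not counted, so the 2 of 9 cannot be read as an excess. The groups of 1 member, Id1, were fully apart, as were those of 9.1% of all genes, 2.96% in the lower direction. The 5 targets had a median difference of -0.175, against -0.01 over all genes, and the largest upper bound of a 95% interval among them was 0.56, for Id2. In crypts 4 of 9 passed, Id2 higher and Bmp2, Smad6 and Smad7 lower, beside 12.4% of all genes, 5.17% higher and 7.22% lower. All 4 were fully apart, as were 11.7% of all genes, 4.89% higher and 6.78% lower, and the median over the targets was 0.09, against 0.01 over all genes. Since this contrast was in view when the genes were chosen, these counts are a description.

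Against control, Id1, Id2 and Id3 rose in both tissues of the double knockout. The villus calls of Id1 and Id3 held in 13 and 14 of 23 alternative settings, and the crypt call of Id3 in 17 of 23. In villi 3 of 9 members rose (Id1, Id2 and Id3) and 0 fell, beside 17.1% of all genes past the threshold and 11.3% higher, with 0 fully apart, against 14.5% of all genes. In crypts 4 rose (Id1, Id2, Id3 and Bmpr1a) and 1 fell (Smad7), beside 20.2% of all genes, 11% higher and 9.19% lower. The groups of Id1 and Id2 were fully apart there, 2 of 9 members, against 13.5% of all genes, 7.54% in the higher direction. The 3 comparisons of a tissue share arrays, so their differences are not independent of each other.

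The effect of genotype differed between tissues for Bmp2 and Id1. The effect of Rb loss on Bmp2 was 0.88 ± 0.29 higher in crypts than in villi (limma interaction, adjusted p = 0.0393), the only call among 9 members, beside 13.7% of all genes, 6.97% in the higher direction. The effect of Myc loss on Bmp2 was lower in crypts (-1.03 ± 0.29, adjusted p = 0.0431) and that on Id1 higher (0.51 ± 0.14, adjusted p = 0.0418), 2 of 9 members, beside 3.4% of all genes, 1.11% higher and 2.29% lower. These 2 calls are a description, since the contrast of Myc loss was in view when the genes were chosen. With the animal as a replicate block the same calls held (adjusted p = 0.00325, 0.00453 and 0.0314). The first was lost with the crypt marker score in the model (0.63, adjusted p = 0.134) and with only the compared groups in the fit (0.0748), and the Bmp2 effect of Myc loss with quantile normalization (0.0592). In the fit without the replicate block, leaving out Rb KO replicates 4 and 5 ended all 3 calls (adjusted p = 0.187, 0.153 and 0.0853). Leaving out single arrays of that fit ended them in 11, 14 and 12 of 20 cases (adjusted p from 0.0534 to 0.0839, 0.0534 to 0.0762 and 0.05 to 0.0803). These arrays were, for the first, Rb KO villi 4 and 5, Rb KO crypts 1, 2, 3 and 5, control villi 2, 3 and 5, and control crypts 1 and 3. For the Bmp2 effect of Myc loss they were Rb/Myc DKO villi 2 to 5, Rb/Myc DKO crypts 1, 3, 4 and 5, Rb KO villi 4 and 5 and Rb KO crypts 1, 2, 3 and 5. For Id1 they were Rb/Myc DKO villi 1, 3 and 4, Rb/Myc DKO crypts 3, 4 and 5, Rb KO villi 2, 3 and 4 and Rb KO crypts 1, 3 and 5. The tissue difference in the Bmp4 effect of Myc loss was 0.10, with a 95% interval of -0.48 to 0.69.

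Of 50 other genes listed for the pathway, 46 had a probe set and 35 were tested. In Rb KO villi 5 rose and 1 fell, beside 30.5% of all genes past the threshold and 14.7% higher. Twsg1, which encodes an extracellular BMP-binding protein, rose by 0.85 ± 0.11 (limma, adjusted p = 3e-05), the type II receptor gene Acvr2b by 0.58 (0.00171), and Id4 by 0.34 (0.00424). The ligand gene Bmp10 fell by 0.23 (adjusted p = 0.0107), and Skil, which encodes a Smad corepressor, rose by 0.36 (0.0169). The ligand gene Bmp8b rose too, at group means of 7.77 in control and 8.52 in Rb KO villi, with the groups overlapping. In Rb KO crypts 2 rose, Twsg1 by 0.39 (adjusted p = 0.000269) and Skil by 0.42 (0.0222), and 0 fell, beside 10.3% of all genes. That count was 1 without any of Rb KO crypts replicates 3, 4 and 5 and control crypts replicate 4.

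From Rb KO to Rb/Myc DKO villi, 0 of the 35 rose and 1 fell, Acvr2b by 0.41 (limma, adjusted p = 0.0484), beside 7.83% of all genes. The count was 0 without any of Rb/Myc DKO villi replicates 1, 3, 4 and 5 and Rb KO villi replicates 1, 3 and 4, and 2 without Rb KO villi replicate 2. In crypts 5 rose and 2 fell, beside 12.4% of all genes. Bmp1, a protease that cleaves the BMP antagonist chordin, rose by 0.41 (adjusted p = 0.00291), the co-receptor gene Rgmb by 0.56 (0.00772), and Fst, which encodes the secreted antagonist follistatin, rose with Twsg1 and Msx1, by 0.31, 0.19 and 0.21 (0.0214, 0.03 and 0.0254). Smad4, the common partner of the receptor-activated Smads, fell by 0.32 ± 0.07 (adjusted p = 0.00533), and Fstl1, a secreted follistatin-like protein, fell by 0.94 ± 0.22 (0.0104). Against control, Twsg1 rose by 0.86 in Rb/Myc DKO villi (adjusted p = 4.45e-05) and by 0.59 in crypts (3.41e-06), and 2 rose and 1 fell in villi and 4 rose and 2 fell in crypts, beside 17.1% and 20.2% of all genes. The median difference of the 35 genes lay between -0.04 and 0.03 over the 6 comparisons.

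Villi and crypts are bulk tissue, in which fewer cells of a type and less RNA per cell cannot be told apart. Mesenchyme, a known source of BMP ligands, was followed with 16 markers, of which 13 were tested and 0 passed the threshold in any of the 6 comparisons (limma). Between 7.83% and 30.5% of all genes passed in those comparisons. The share of all genes at an unadjusted p under 0.05 was not counted. At that level 1 of 13 markers was lower in each mutant against control villi, and 0 in the other 4 comparisons. Their mean level overlapped between genotypes, at 6.66 to 7.20 in control, 6.64 to 7.61 in Rb KO and 6.31 to 7.20 in Rb/Myc DKO villi and at 6.82 to 7.09, 6.58 to 7.49 and 6.68 to 7.08 in crypts. With this level in the model, the number of members called changed by at most 1 in any comparison, to 3 of 9 between the mutant crypts and 4 of 9 between Rb/Myc DKO and control crypts.

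T cell and leukocyte markers moved with the villus groups: 6 of 8 fell in Rb KO villi, beside 30.5% of all genes past the threshold. From Rb KO to Rb/Myc DKO villi 4 of 8 rose, beside 7.83% of all genes. Their mean level was 10.46 to 11.07 in control, 9.86 to 10.55 in Rb KO and 10.69 to 10.98 in Rb/Myc DKO villi. In crypts 1 of 8, Itgae, rose between the mutants, and 2 of 8 rose in Rb/Myc DKO against control, at mean levels of 7.23 to 7.76, 7.27 to 8.11 and 7.71 to 8.18. Crypt markers, 9 in all, read 7.99 to 10.24, 8.81 to 10.10 and 9.12 to 10.30 in the villus groups and 12.34 to 12.75, 12.10 to 12.50 and 12.41 to 12.78 in the crypt groups, where 3 of 9 rose from Rb KO to Rb/Myc DKO (Slc12a2, Ang4 and Itln1). Ang4 fell in Rb KO against control crypts, and against control Lyz1 rose in Rb/Myc DKO villi and Itln1 in Rb/Myc DKO crypts, 1 of 9 each. Of 7 villus enterocyte markers tested, 1, Ada, rose in Rb KO and in Rb/Myc DKO crypts against control and 0 passed in the other 4 comparisons. Their mean level was 12.07 to 12.82 in control, 12.65 to 13.19 in Rb KO and 12.42 to 13.02 in Rb/Myc DKO crypts, and 14.33 to 14.55 over all villi. Of 7 epithelium markers, 2 rose (Krt18 and Krt19) and 1 fell (Vil1) in Rb KO villi, Krt18 rose in Rb/Myc DKO against control villi, and Epcam and Krt19 rose in Rb/Myc DKO against control crypts. Endothelial markers had 3 of 7 members tested, and 1 of these rose in Rb/Myc DKO against control crypts. Beside these marker counts, 30.5%, 7.83% and 17.1% of all genes passed the threshold in villi, and 10.3%, 12.4% and 20.2% in crypts. The order is Rb KO against control, Rb/Myc DKO against Rb KO and Rb/Myc DKO against control. The fits with a marker score used the crypt and the mesenchyme lists only. No fit held a leukocyte, endothelial, enterocyte or epithelium score, so the part of those cell types in the member values was not tested. The difference between the 3′ and 5′ Gapdh control probe sets, a measure of RNA integrity, was -0.21 to -0.11 in control, -0.09 to 0.01 in Rb KO and -0.11 to -0.07 in Rb/Myc DKO villi. Control and Rb KO villi, between which Id1, Id2 and Id3 rose, were fully apart in it. In crypts it averaged -0.27, -0.27 and -0.24. The same difference for Actb averaged 0.18, 0.25 and 0.20 in villi and 0.29, 0.26 and 0.25 in crypts, so in crypts the Gapdh and Actb means ran opposite ways over the genotypes, and the part of either in the member values was not tested.

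**Figure D4:**
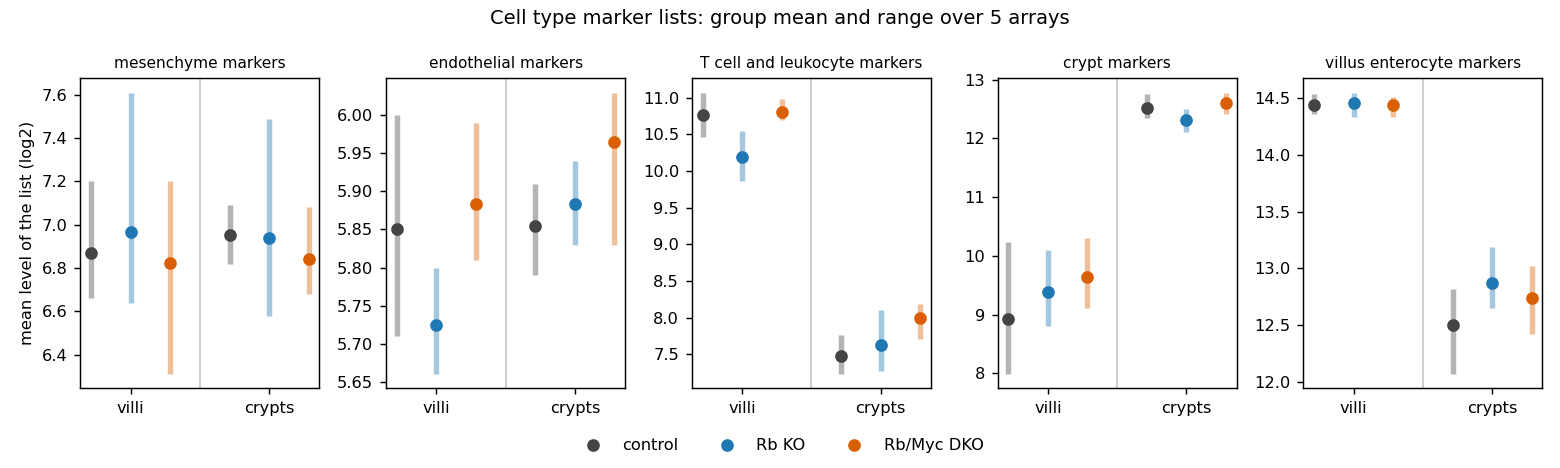
Mean level of 5 marker lists (log2, vertical axis, with its own range in each panel) by tissue and genotype. Points are means of 5 arrays and bars run from the lowest to the highest array. Mesenchyme markers overlap between genotypes, while T cell and leukocyte markers stand at 9.86 to 10.55 in Rb KO villi, below the 10.69 to 10.98 of Rb/Myc DKO villi.

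The genes with the pattern most like that of Bmp4 were found by the root mean square difference over the 30 arrays, after each gene was set to its own mean in each tissue. For scale, that of Bmp4 from 0 was 0.923. The closest were Man2a2, which encodes a Golgi mannosidase (0.393), Tgfbr2, the type II receptor gene for transforming growth factor beta (0.439), Tcf23 (0.477), Cyp4b1, a cytochrome P450 gene (0.53), and Rgcc (0.563). From Rb KO to Rb/Myc DKO, Man2a2 was higher by 1.32 in villi and 1.36 in crypts, and Tgfbr2 by 0.90 and 1.58. Of the members, Id2 came closest to Bmp4, at 0.711 and rank 60 of 14548 genes. Between Rb KO and control crypts, however, Id2 differed by 0.60 and Bmp4 by 0.03. Id1 followed at rank 983, but at 0.849 it was little nearer to Bmp4 than a gene without differences. From Rb KO to Rb/Myc DKO villi Id1 differed by -0.22 and Bmp4 by 1.76. Smad7, Smad6 and Bmp2 stood at ranks 13741, 13753 and 14225, among the least alike. These likenesses are descriptions over arrays that share groups.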

How the data were processed

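Villi and crypts were profiled on 30 arrays, with a biotin label per the labels. The values are log2 expression as the authors deposited it for 45101 probe sets, ranging from 2.64 to 15.21. The background correction, normalization and summarization are not given in the sources used here. Medians were 6.28 to 6.34 over villus arrays and 6.67 to 6.73 over crypt arrays. Pairs of arrays from a single tissue had 285 to 596 values in common, and pairs across tissues at most 1, so each tissue was treated as scaled on its own. Within groups, arrays correlated at 0.987 to 0.9973, and precision is limited by how many there are.

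Gene symbols came from the platform annotation: 1 symbol for 34958 probe sets, several for 932, none for 9211. Testing covered genes whose mean exceeded the 30th percentile (5.33), plus every member whatever its level. Linear models of genotype per tissue, and of the interaction over both, used limma 3.58.1 (R 4.3.3) with no covariate, adjusted by Benjamini and Hochberg at 0.05. The fits were run on simulated data with independent noise for each array. Villi and crypts that deviate together were not part of that check. Motifs were searched in Python 3.11.15 and figures drawn with matplotlib 3.10.9.

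The members and the gene lists were chosen with earlier results of these data known. The genes named are all members, Rb1 and Myc, up to 5 other pathway genes of smallest p per comparison past the threshold, and the 5 genes most like Bmp4. Itgae, Slc12a2, Ang4, Itln1, Lyz1, Ada, Krt18, Krt19, Vil1, Epcam, Msx1, Bmp8b, Twsg1 between mutant crypts, and Cdkn3, Styx and Gnpnat1 were named after their values were seen. Villi and crypts with the same genotype and number deviated together in 15 of 15 cases (r from 0.246 to 0.56) and were taken as the same animal. Between genotypes, r was over 0.1 for 4 of 15 same-numbered pairs in crypts and 8 of 15 in villi. Rb/Myc DKO and control arrays 2, 3 and 4 deviated together in both tissues (r from 0.259 to 0.419), while arrays 1 and 5 did not (r from -0.197 to -0.102). Since this did not hold for every pair, the numbers were not taken as pairs, and the replicate block is an alternative. By Xist, 5 of 15 animals were female. The alternatives were the mean of all probe sets, other filters, quantile normalization, other limma settings, only the compared groups, the replicate block, sex or a marker score in the model, other thresholds, and arrays left out.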

Additional observations from a re-analysis of the deposited data

Results flagged for a closer look

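In 60 groups of 5 arrays, 2 single arrays of a member stood far from the other 4 by Dixon's test at 95%, and chance alone sets apart about 1 group in 20. The Bmp5 value of Rb/Myc DKO crypts replicate 5 was the lowest of its group, at 4.57, in a gene near the low end of the scale. The Id1 value of Rb/Myc DKO villi replicate 3 was the lowest of its group, at 10.35, and without it Rb/Myc DKO minus control stayed past the threshold. Without the same array, the tissue difference in the Id1 effect of Myc loss no longer passed (0.45, limma interaction, adjusted p = 0.0803).

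Of 18 tests of a difference between crypts and villi in the members, 3 passed the threshold. The effect of Rb loss on Bmp2 was 0.88 higher in crypts than in villi, the effect of Myc loss on Bmp2 differed by -1.03, and that on Id1 by 0.51. Those of Myc loss are a description, since that contrast was in view when the genes were chosen. All 3 came from limma's interaction over 30 arrays without pairing villi and crypts of an animal, and in that fit each was lost without some of the single arrays. With the animal as a replicate block the adjusted p-values were 0.00325, 0.00453 and 0.0314 (limma). No array was left out of the fit with the block.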

How the results depend on the processing

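No called difference of a member took the other sign in any alternative, and 76 of 2070 member values, Bmp4 included, did so, all without a call and at most 0.159 in reported size. Of 1863 values of the 9 tested members, 1714 kept their side of the threshold, 132 lost a call and 17 gained one. The count of members past the threshold changed by over 1.5 times as follows. With Rb KO replicates 4 and 5 left out it was 1 instead of 0 between mutant villi, 2 instead of 4 between Rb KO and control crypts, and 0 instead of 1 and 2 in the tissue differences of Rb and of Myc loss. With control replicates 1 and 4 left out it was 0 instead of 3 in Rb/Myc DKO against control villi and 2 instead of 5 in crypts. With only the compared groups in the fit these counts were 1 and 3, and the tissue difference of Rb loss had 0. With the crypt marker score in the model 2 instead of 4 were called between mutant crypts, and 0 in the tissue difference of Rb loss. Quantile normalization left 1 in the tissue difference of Myc loss. At an adjusted p of 0.01 the counts were 1 in Rb/Myc DKO against control villi, 2 in each of the 3 crypt comparisons and 0 in both tissue differences. Leaving out 1 replicate in turn gave 2 to 4 members in Rb KO villi, 0 to 1 between mutant villi, 1 to 3 in Rb/Myc DKO villi, 3 to 5 in Rb KO crypts, 3 to 4 between mutant crypts, 3 to 5 in Rb/Myc DKO crypts, and 0 to 1 and 0 to 2 in the tissue differences. The replicate block gave 3, 0 and 3 members in villi and 4, 4 and 4 in crypts, ending 1 call, that of Bmpr1a in Rb/Myc DKO crypts, and 1 and 2 in the tissue differences. Over all genes, the tissue difference of Myc loss had 495 calls and 1291 with the animal as a replicate block, 978 with the crypt marker score and 276 without Rb KO replicates 4 and 5. Between mutant villi 1139 genes were called, 2549 with the crypt marker score and 554 without Rb KO replicates 4 and 5, which also lowered the calls of Rb KO crypts from 1498 to 805, of mutant crypts from 1802 to 1135 and of the tissue difference of Rb loss from 1998 to 1069. At an adjusted p of 0.01 the calls over all genes were 2867 instead of 4433 in Rb KO villi, 251 between mutant villi, 1294 instead of 2484 in Rb/Myc DKO villi, 673, 745 and 1648 (of 2942) in the crypt comparisons and 940 and 85 in the tissue differences, and at 0.10 they were 1928 between mutant villi and 1125 in the tissue difference of Myc loss. Leaving out Rb/Myc DKO villi replicate 2, 3 or 4 or Rb KO villi replicate 4 lowered the 1139 calls between mutant villi to between 541 and 752, and leaving out Rb/Myc DKO crypts replicate 1 or 3 or Rb KO crypts replicate 1, 3 or 4 lowered those of the tissue difference of Myc loss to between 273 and 323. Other pathway genes called between mutant crypts were 7, and 4 with the mean of all probe sets, with the crypt marker score or without Rb KO replicates 4 and 5. Between mutant villi that count was 1, with 2 under the replicate block or the crypt marker score, 0 with the mean of all probe sets, no filter, only the compared groups, sex or the mesenchyme score in the model or without Rb KO replicates 4 and 5, and 0 to 2 with 1 array left out. In Rb KO crypts it was 2, with 1 under the crypt marker score and without control replicates 1 and 4 or Rb KO replicates 4 and 5, and 1 to 2 with 1 array left out. Bmp5 lies near the low end of the signal, where differences may not be detectable. The causes of these shifts were not tested.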

Other observations

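The tested genes nearest to Bmp4 in the reference gene order did not share its values. These genes lay 370 to 1034 kb from Bmp4, and an effect limited to a shorter stretch around it was not tested. Of the 10 nearest tested genes, 5 on each side, 0 passed the threshold from Rb KO to Rb/Myc DKO villi (limma), with differences from -0.60 to 0.17, against 1.76 for Bmp4. In crypts Cdkn3, a phosphatase gene of the cell cycle, rose by 0.32 (adjusted p = 0.022), and Styx and Gnpnat1 fell by 0.25 and 0.28 (0.0147 and 0.0238), against 1.86 for Bmp4.

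Rgcc and Tcf23, genes with a pattern like that of Bmp4, differed more between mutant crypts than between mutant villi. Rgcc was at 7.20 ± 0.27 in Rb KO and 9.94 ± 0.45 in Rb/Myc DKO crypts (SD, n = 5) and at 5.22 ± 0.13 and 6.0 ± 0.29 in villi. Tcf23 was at 7.13 ± 0.34 and 8.98 ± 0.51 in crypts and 5.99 ± 0.34 and 6.60 ± 0.36 in villi. Both were picked for their likeness to Bmp4, and the difference between tissues was not tested here.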
